A study of Mus musculus with 6 samples.

Results

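Immediate early and receptor-induced genes are the transcripts that a T cell makes within minutes to hours of a signal through its antigen receptor, and 35 such genes were examined in regulatory T cells (Treg) with and without HDAC9. The members were taken from a written list of gene symbols, each represented by the probe set with the highest mean over the 6 arrays. A probe set is a group of short oligonucleotides on the array that together report 1 transcript or several. Of the 35 listed genes, 32 had a probe set of their own among the 12393 genes that the array names. Dusp4, Dusp5 and Cd69 had none and were not analysed here.

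The HDAC9-/- group held 3 samples of CD4+CD25+ cells from mice lacking the class IIa histone deacetylase HDAC9, and the wild type group held 3 samples of the same fraction, with C57BL/6 given as the strain of both. The cells were separated magnetically, no stimulus is named in the labels, and each sample was hybridised to its own array. The samples are called independent, but the sources used here do not give age, sex, the deleted exons or whether animals were pooled. The p-values therefore measure only the spread between these samples, which may be technical. All values are log2 signals, on which a difference of 1 is a doubling, and all differences are HDAC9-/- minus wild type.

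Engagement of the antigen receptor activates the ERK kinases, calcium and calcineurin, and NF-kappaB. ERK acts through serum response factor and its ETS partners, and calcium acts through NFAT, CREB and the MEF2 factors, so that the first wave of genes is transcribed without new protein synthesis. Most products of this wave are transcription factors, such as those of the NR4A, EGR and AP-1 families, while others shut the signal off, such as the dual-specificity phosphatases and the RNA-binding proteins of the ZFP36 family. HDAC9 and the other class IIa deacetylases bind MEF2 and repress its targets, and Nr4a1 is a known MEF2 target in T cells. Cell isolation itself can also induce many of these genes.

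Most markers of the labelled cell type were bright, but they do not measure how pure the fraction was. Foxp3, the defining factor of Treg, read 10.35, 10.33 and 10.44 in HDAC9-/- samples, against 10.35, 10.29 and 10.38 in wild type samples. The groups overlapped. Of the other T cell markers on the list, Cd3e, Cd3g, Cd4, Ctla4 and Il2ra were brighter than the median probe set (5.76), and Ikzf2 was dimmer. Some markers of other cells were brighter than Foxp3, whose mean over the 6 arrays was 10.36. The plasma cell gene Jchain (11.75) and the neutrophil gene S100a8 (11.47) were examples, while most such markers were dimmer than Foxp3. Il2ra, which encodes CD25, the surface marker of the separated fraction, read 9.42, 9.34 and 9.42 in HDAC9-/- samples, against 9.45, 9.46 and 9.54 in wild type samples. Its groups lay apart, with a difference of -0.085 (limma, adjusted p = 0.712). The single Hdac9 probe set was dim, at 3.74, 3.62 and 3.66 in HDAC9-/- samples and at 3.50, 3.74 and 4.10 in wild type samples, so it did not check the genotype labels. Wild type replicate 3 stood apart, with the lowest mean correlation to the other arrays (0.991, against 0.994 to 0.996) and the lowest array median (5.69, against 5.77 to 5.81).

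Klf10 was the member with the largest difference upward, and Btg1 and Btg2 had the largest differences downward, but no member passed the test across the array. With limma, 0 of 32 members had an adjusted p below 0.05, where 0.0133% of all 22626 probe sets did. At an unadjusted p below 0.05, 1 member was higher (Klf10), where 6.12% of all genes were, and 1 was lower (Btg1), where 2.62% of all genes were. Each count is 3.13% of the 32 members, below the first of these shares and close to the second. The groups did not overlap for 2 members that were higher in HDAC9-/- Treg, Klf10 and Fos (12.5% of all genes), and for 2 that were lower, Btg1 and Jund (5.70% of all genes). As shares of the members these counts are 6.25% each.

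Klf10 encodes a zinc finger repressor that TGF-beta and receptor signals induce and that takes part in Treg function. It read 7.70, 7.71 and 7.76 in HDAC9-/- samples, against 7.28, 7.32 and 7.40 in wild type samples. All HDAC9-/- samples were above all wild type samples. The means were 7.73 ± 0.034 in HDAC9-/- and 7.33 ± 0.061 in wild type samples (SD, n = 3 each). Its probe set, 1416029_at, differed by 0.39 with a standard error of 0.067, a 1.31-fold higher signal (limma, unadjusted p = 0.000674, adjusted p = 0.325). Its 95% confidence interval ran from 0.23 to 0.55, and 25 of the 12393 genes had a smaller unadjusted p. The array carries 1 probe set for Klf10, so no other probe set could check it.

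Btg1 and Btg2 encode antiproliferative proteins that recruit the CCR4-NOT deadenylase and help to keep T cells quiescent. Btg1 (probe set 1426083_a_at) read 11.93, 11.76 and 11.84 in HDAC9-/- samples, against 12.09, 11.98 and 12.26 in wild type samples, and the groups did not overlap. Its difference was -0.27 with a standard error of 0.094 (limma, unadjusted p = 0.0245, adjusted p = 0.537). The unadjusted p was 0.0503 to 0.0851 without wild type replicate 1, wild type replicate 3, HDAC9-/- replicate 2 or HDAC9-/- replicate 3. The other Btg1 probe set had the same sign (-0.34, unadjusted p = 0.132), with wild type replicate 3 far above the rest at 12.15.

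Btg2 is also a target of p53. Its brightest probe set, 1416250_at, read 9.37, 9.83 and 9.57 in HDAC9-/- samples, against 10.04, 10.33 and 9.68 in wild type samples. HDAC9-/- replicate 2 lay above wild type replicate 3, so the groups overlapped. The difference was -0.42 with a standard error of 0.19 (limma, unadjusted p = 0.0575, adjusted p = 0.580), and it was -0.27 without wild type replicate 2. The second Btg2 probe set, 1448272_at, read 8.79, 8.68 and 8.70 in HDAC9-/- samples, against 9.16, 8.92 and 9.11 in wild type samples. There the groups did not overlap, and the difference was -0.34 with a standard error of 0.085 (unadjusted p = 0.00580, adjusted p = 0.430).

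Gadd45b and Gadd45g encode small stress sensors that activate the p38 and JNK kinase cascades. Gadd45b (probe set 1450971_at) read 9.63, 9.77 and 9.90 in HDAC9-/- samples, against 9.51, 9.64 and 9.55 in wild type samples, with HDAC9-/- replicate 1 just below the highest wild type sample. The difference was 0.20 (95% confidence interval -0.011 to 0.41, adjusted p = 0.580). Of its other probe sets, 1449773_s_at read 9.71, 9.62 and 9.70 in HDAC9-/- samples, against 9.32, 9.18 and 9.51 in wild type samples (difference 0.34, unadjusted p = 0.0104, adjusted p = 0.454), and the third differed by 0.053. In that identifier, s marks probes that may match several transcripts. Gadd45g differed by 0.13 with overlapping groups. Its highest value was 7.95 in HDAC9-/- replicate 1, without which the difference was 0.018.

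The 250 bases before the annotated start of 4 members are shown because Btg1 and Btg2 had the 2 lowest differences of the 32 members, Gadd45b was among the 3 highest, and Nr4a1 is the member with a textbook link to class IIa deacetylases. The promoter table used here has no entry for Klf10. Sequences are from RefSeq, build GRCm38.p6, written 5′ to 3′ along the gene's strand, and capitals mark the letters of any of 6 motifs found on either strand.
Btg2, chr1:134079156-134079405, minus strand: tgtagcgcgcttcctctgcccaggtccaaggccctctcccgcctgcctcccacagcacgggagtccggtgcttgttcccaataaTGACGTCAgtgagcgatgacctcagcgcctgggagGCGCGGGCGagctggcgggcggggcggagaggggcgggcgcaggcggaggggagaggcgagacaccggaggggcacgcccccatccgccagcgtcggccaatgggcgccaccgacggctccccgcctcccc
Btg1, chr10:96616751-96617000, plus strand: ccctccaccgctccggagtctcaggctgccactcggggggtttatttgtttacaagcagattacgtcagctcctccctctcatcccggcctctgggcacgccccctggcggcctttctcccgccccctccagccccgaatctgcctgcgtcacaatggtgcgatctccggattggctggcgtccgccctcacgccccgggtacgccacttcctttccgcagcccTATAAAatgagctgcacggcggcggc
Gadd45b, chr10:80929841-80930090, plus strand: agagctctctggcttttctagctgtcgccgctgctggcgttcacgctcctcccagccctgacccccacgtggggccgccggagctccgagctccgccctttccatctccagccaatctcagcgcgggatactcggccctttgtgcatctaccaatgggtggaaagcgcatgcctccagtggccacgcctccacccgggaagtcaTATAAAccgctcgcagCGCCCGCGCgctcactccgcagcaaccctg
Nr4a1, chr15:101266596-101266845, plus strand: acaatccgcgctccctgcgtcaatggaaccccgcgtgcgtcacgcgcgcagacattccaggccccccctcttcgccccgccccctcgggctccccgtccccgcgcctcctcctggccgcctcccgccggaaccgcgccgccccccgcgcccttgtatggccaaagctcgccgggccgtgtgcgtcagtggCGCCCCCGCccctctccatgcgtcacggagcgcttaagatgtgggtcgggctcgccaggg

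The motifs searched were the cAMP response element TGACGTCA, the AP-1 element TGANTCA, the EGR element GCGNGGGCG, the TATA box TATAAA, and the CArG box of serum response factor and the MEF2 element by their consensus. Of the 32 measured members, 25 had a promoter entry, and 10 of these (40%) held the EGR letters, where 9.16% of 9887 measured genes did. Those members were Nr4a1, Nr4a2, Fosb, Fosl2, Klf4, Dusp2, Zfp36, Btg2, Gadd45b and Rgs2. The members' windows were also richer in G and C, with a median of 64.8% against 58.4% for measured genes, and the part of base composition was not tested. The letters of the cAMP response element were in Btg2, where they span bases -166 to -159 from the start, and in Dusp1 (2 of 25, against 2.53% of measured genes). The CArG letters were in Egr2 and Zfp36, the MEF2 letters in Nr4a2, Jun and Atf3, and the AP-1 letters in Zfp36l1, where 1.60%, 2.27% and 6.84% of measured genes held them. The Nr4a1 window held no MEF2 letters, but bases farther from the start were not searched. The TATA letters were in Nr4a2, Fos, Zfp36l1, Btg1, Gadd45b and Gadd45g, against 10.7% of measured genes, and in Nr4a2 they overlap the MEF2 letters. Of the 10 members with the EGR letters, 8 had negative differences, and Klf4 (0.055) and Gadd45b (0.20) had positive ones. The members with the cAMP (2), CArG (2) or AP-1 (1) letters all had negative differences, and those with the MEF2 or TATA letters lay on both sides of 0. Among all 32 members, 22 (68.8%) had negative differences, and a link between the letters and the direction was not tested.

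All 3 NR4A orphan nuclear receptors, which limit T cell activation and are needed for Treg development, had lower means in HDAC9-/- Treg without passing. Nr4a1, which encodes Nur77, read 11.19, 10.94 and 11.05 in HDAC9-/- samples, against 11.25, 11.18 and 11.22 in wild type samples. HDAC9-/- replicate 1 fell between wild type replicates 2 and 3, so the groups overlapped. The difference was -0.16 (95% confidence interval -0.35 to 0.041, limma, adjusted p = 0.614). Nr4a2 differed by -0.14 and Nr4a3 by -0.16, and the second probe set of each had the same sign (-0.16 and -0.15). The Nr4a2 difference was -0.020 without wild type replicate 1, but -0.26 when wild type replicate 3 was left out, and that of Nr4a3 was -0.066 without wild type replicate 3. That of Nr4a1 was -0.095 without HDAC9-/- replicate 2. Nr4a3 read 5.39, 5.37 and 5.21 in HDAC9-/- samples, against 5.37, 5.40 and 5.66 in wild type samples, so that its highest value came from wild type replicate 3. Both Nr4a3 probe sets were dimmer than the median probe set, where RMA, the summary method of the deposited values, compresses differences.

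The EGR zinc finger factors, which ERK signalling induces and which restrain T cell activation in the case of Egr2 and Egr3, also had negative differences without passing. Egr1 read 11.04, 11.01 and 10.94 in HDAC9-/- samples, against 11.15, 11.06 and 10.98 in wild type samples. The difference of -0.065 was smaller than its standard error of 0.073. Egr3 read 6.58, 6.72 and 6.54 in HDAC9-/- samples, against 6.62, 6.80 and 6.80 in wild type samples (difference -0.13, adjusted p = 0.674). The 2 Egr2 probe sets differed by -0.089 and -0.16, and the sign of the first turned (0.0015) without wild type replicate 1, whose value of 7.44 was the highest.

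**Figure D1:**
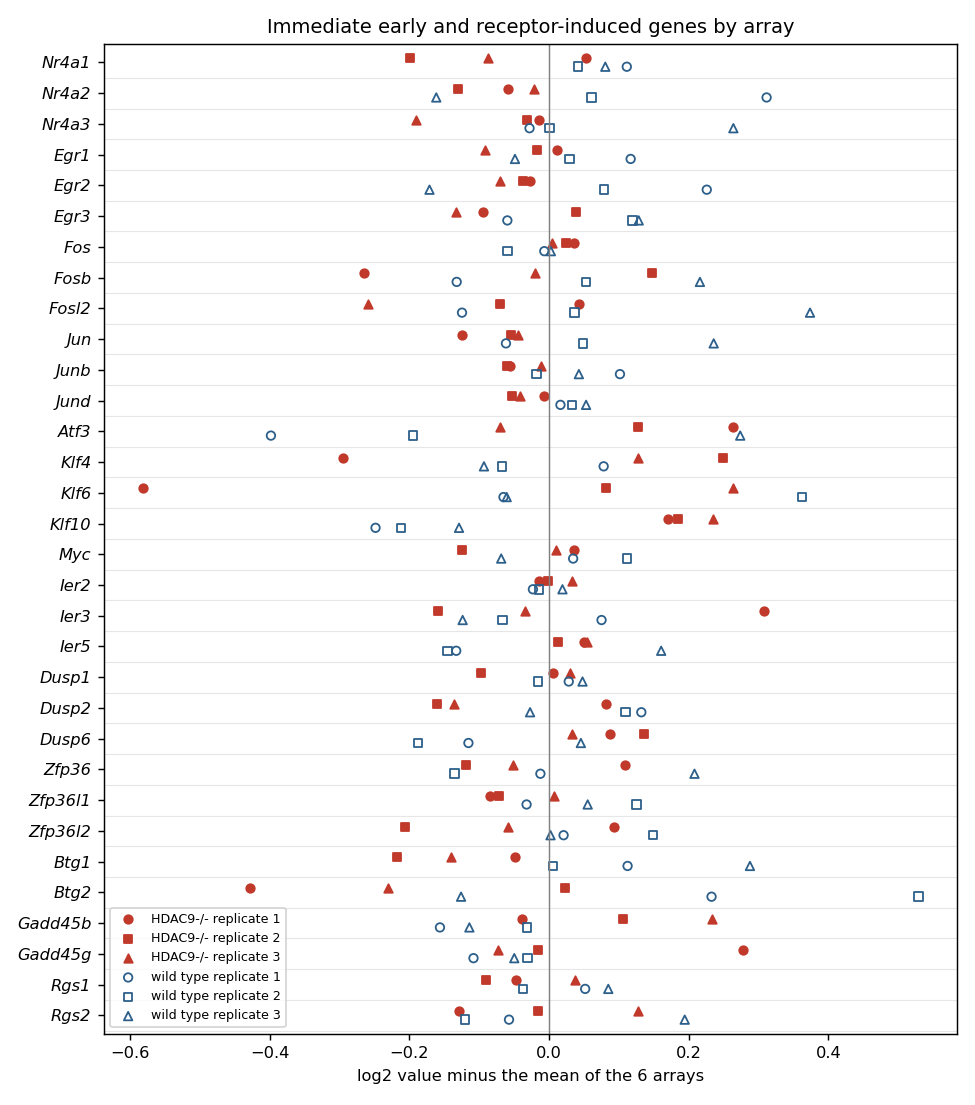
Log2 value of each of the 32 members on each array, minus the member's mean over the 6 arrays (x axis), with members on the y axis. Filled red marks are HDAC9-/- samples, open blue marks are wild type samples, and circles, squares and triangles are replicates 1, 2 and 3. The groups lie apart for Klf10, Fos, Btg1 and Jund and overlap for the other 28 members.

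AP-1 is a dimer of FOS and JUN family proteins that drives cytokine and activation genes. Fos had tightly grouped values of 12.12, 12.11 and 12.09 in HDAC9-/- samples, against 12.08, 12.03 and 12.09 in wild type samples. The groups touched without overlapping, and they overlapped once array medians were aligned or quantile normalization was repeated. The difference of 0.042 had a 95% confidence interval of -0.10 to 0.19. Jund, the JUN protein of resting cells, read 11.97, 11.92 and 11.93 in HDAC9-/- samples, against 11.99, 12.01 and 12.03 in wild type samples (difference -0.068, adjusted p = 0.747). The groups of Jund lay apart, although the difference was close to its standard error of 0.061.

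The other AP-1 genes overlapped between the genotypes. Jun read 11.47, 11.54 and 11.55 in HDAC9-/- samples, against 11.53, 11.64 and 11.83 in wild type samples (difference -0.15). The difference was -0.068 without wild type replicate 3, and the second Jun probe set differed by 0.072, the opposite sign. Junb, which opposes Jun in several settings and sustains effector Treg, differed by -0.085, and Fosb differed by -0.091. Fosl2 (-0.19) and Atf3 (0.21), a stress-induced repressor, had the largest differences of the family, but both were dim and widely spread. The Fosl2 difference was -0.051 without wild type replicate 3, but -0.30 when wild type replicate 1 was left out. That of Atf3 was 0.40 without wild type replicate 3 (limma, unadjusted p = 0.0135) and 0.067 without wild type replicate 1. Atf3 read 6.00, 5.86 and 5.66 in HDAC9-/- samples, against 5.34, 5.54 and 6.01 in wild type samples, with the highest value in wild type replicate 3.

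Apart from Klf10, the KLF factors and Myc showed no separation. Klf4 and Klf6 are zinc finger factors linked to quiescence and stress. Klf6 had the widest spread of any member in HDAC9-/- samples, at 9.18, 9.84 and 10.02, against 9.69, 10.12 and 9.70 in wild type samples. Its difference of -0.16 had a 95% confidence interval of -0.71 to 0.39, and its other probe sets differed by 0.020 and -0.48. Klf4 differed by 0.055 and its second probe set by 0.075, with HDAC9-/- replicate 1 the lowest sample for the first. Myc, the driver of growth after activation, read 9.46, 9.30 and 9.43 in HDAC9-/- samples, against 9.46, 9.53 and 9.35 in wild type samples (difference -0.052, adjusted p = 0.851).

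The 3 IER genes, which encode short-lived regulators of growth and survival, had small positive differences. Ier2 was the member whose interval stayed closest to 0, with values of 10.95, 10.97 and 11.00 in HDAC9-/- samples against 10.95, 10.96 and 10.99 in wild type samples. The difference was 0.012, and the 95% confidence interval ran from -0.13 to 0.16. Ier5 read 11.06, 11.02 and 11.06 in HDAC9-/- samples, against 10.87, 10.86 and 11.17 in wild type samples (difference 0.078). Wild type replicate 3 was thus above all HDAC9-/- samples while the other wild type samples were below them. The other Ier5 probe sets disagreed, at -0.33 and 0.18. Ier3 was dim and differed by 0.077.

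The dual-specificity phosphatases remove both phosphates from activated MAP kinases and so end the signal. Dusp6, which acts on ERK in the cytoplasm, read 9.34, 9.39 and 9.28 in HDAC9-/- samples, against 9.13, 9.06 and 9.30 in wild type samples. Only wild type replicate 3 reached the HDAC9-/- range. The difference was 0.17 (95% confidence interval -0.025 to 0.37, limma, adjusted p = 0.601). Dusp2, a nuclear phosphatase of activated lymphocytes, read 11.32, 11.08 and 11.10 in HDAC9-/- samples, against 11.37, 11.35 and 11.21 in wild type samples (difference -0.14, adjusted p = 0.660). Dusp1, which acts mainly on p38 and JNK, differed by -0.040 with a 95% confidence interval of -0.20 to 0.12.

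ZFP36 proteins bind AU-rich elements and speed the decay of cytokine and early-response transcripts. All 3 had negative differences, and none passed. Zfp36l2 read 12.65, 12.35 and 12.50 in HDAC9-/- samples, against 12.58, 12.71 and 12.56 in wild type samples (difference -0.11, and -0.040 without HDAC9-/- replicate 2), and its other probe sets differed by -0.16 and -0.21. Zfp36l1 read 11.27, 11.28 and 11.36 in HDAC9-/- samples, against 11.32, 11.48 and 11.41 in wild type samples (difference -0.099, adjusted p = 0.690). Its second probe set differed by -0.42 with a standard error of 0.22. Zfp36, which encodes tristetraprolin, differed by -0.041.

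Rgs1 and Rgs2 speed the shut-off of G protein signals from chemokine and other receptors. Rgs1 read 11.50, 11.46 and 11.58 in HDAC9-/- samples, against 11.60, 11.51 and 11.63 in wild type samples (difference -0.066, adjusted p = 0.785). Rgs2 differed by -0.011 and its second probe set by -0.18. The groups of both genes overlapped.

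**Figure D2:**
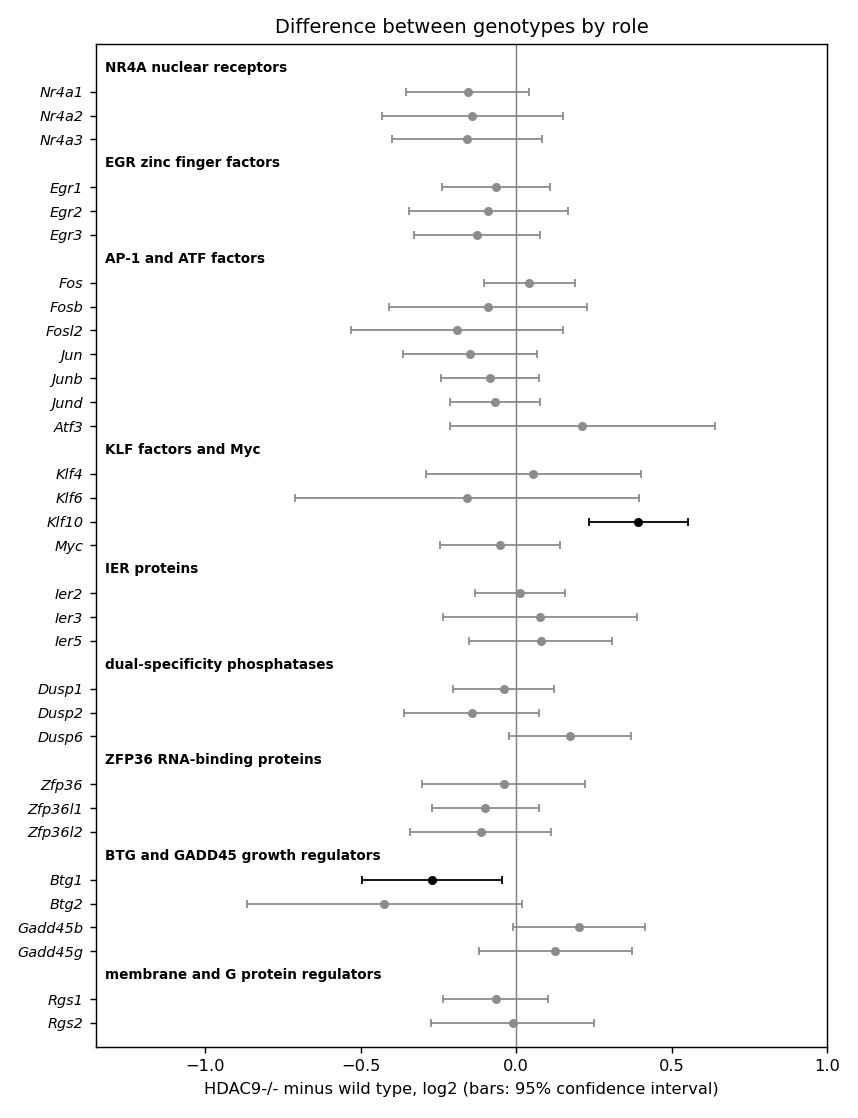
Difference between HDAC9-/- and wild type samples for each member (x axis, log2), grouped by role (y axis); points are limma estimates and bars 95% confidence intervals, black where the unadjusted p is below 0.05. Klf10 (0.39) lies above 0 and Btg1 (-0.27) below it, while the intervals of the other 30 members include 0.

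Seen as a list, the members leaned slightly downward. Of the 32 members, 22 (68.8%) had a negative difference, against 46.0% of all genes, and the median difference was -0.067, against 0.013 over all genes. The members were brighter than that background, with 28 of 32 at or above the median probe set. With dim probe sets left out, the median was -0.067 over 28 members, against 0.036 over the genes that remained. The members share arrays and are induced by the same signals, so they are not independent, and no test was made of the list. The score of an array, the mean over members of the value minus the member's own mean, was -0.022, -0.025 and -0.018 in HDAC9-/- samples, against -0.0035, 0.018 and 0.050 in wild type samples. The score was lower in each HDAC9-/- sample than in any wild type sample. The difference of the means was -0.043, against 0.014 for the same score over all genes. It was -0.028 without wild type replicate 3 and -0.069 with array medians aligned. Among the 9 role groups, the NR4A score (-0.15) and the BTG and GADD45 score (-0.092) also lay apart between genotypes, and the other 7 overlapped.

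The arrays limit what could have been missed. The 95% confidence interval of the brightest probe set stayed within 0.5 either way for 27 of 32 members and within 1 for all 32. A doubling or a halving thus lay outside the interval of every member's brightest probe set. The widest bound among these was 0.87 (Btg2). Another Klf6 probe set, 1418280_at, had an interval from -1.01 to 0.054, which includes a halving. For the members, the median standard deviation was 0.088 among HDAC9-/- samples and 0.097 among wild type samples, where over all genes it was 0.089 among HDAC9-/- samples and 0.11 among wild type samples. Of the members, 4 (Nr4a3, Fosl2, Atf3 and Ier3) were dimmer than the median probe set, and their differences may be understated.

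Probe sets of the same gene mostly agreed in sign. The 13 members with more than 1 probe set had 17 further ones, of which 14 had the sign of the brightest, and the 3 exceptions belonged to Jun, Klf6 and Ier5. Of the 17, 1 was higher (Gadd45b) and 1 lower (Btg2) at an unadjusted p below 0.05. Each is 5.88% of the 17, where 6.12% of all genes were higher and 2.62% lower by the brightest probe set. None passed with an adjusted p below 0.05.

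**Figure D3:**
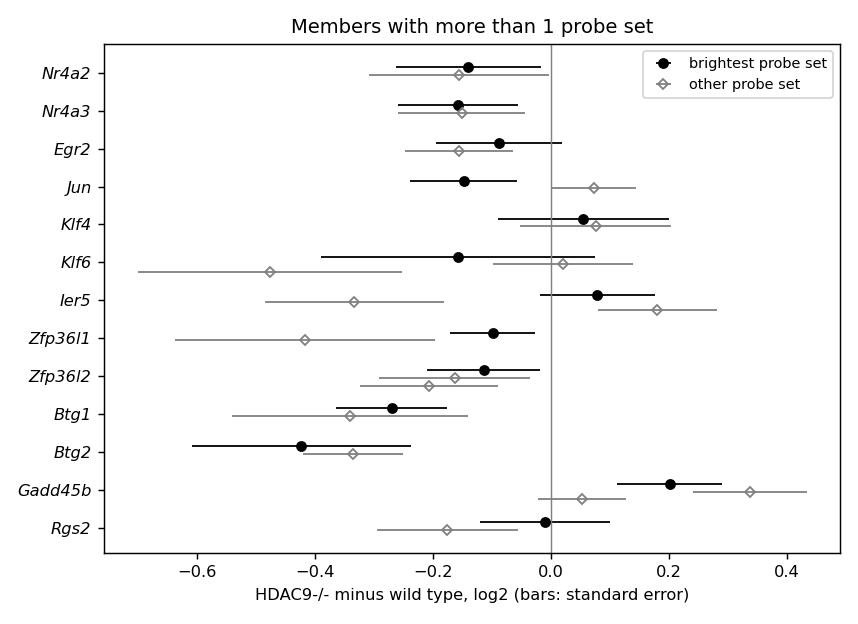
Difference between HDAC9-/- and wild type samples (x axis, log2) for the 13 members with several probe sets (y axis); black circles are the brightest probe set, open grey diamonds the others, and bars the standard error. Both Btg2 probe sets (-0.42 and -0.34) and both Btg1 probe sets (-0.27 and -0.34) lie below 0, and those of Ier5 lie on both sides.

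Upstream and downstream genes of the pathway were read from 4 further lists with 70 measured genes of 79. None passed with an adjusted p below 0.05. At an unadjusted p below 0.05, 3 were higher (4.29%) and 2 lower (2.86%), near the shares over all genes given above. Their median difference was 0.0093, with 37 positive and 33 negative. The ERK and serum response factor arm (14 genes) had no gene past that threshold and a median of -0.024. The calcium, NFAT and CREB arm (15 genes, median 0.040) had 1, and the NF-kappaB feedback list (8 genes, median 0.0082) had none.

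The genes with the smallest p-values came mostly from the list of later receptor-induced genes (33 genes, median -0.020). Maff, a small MAF factor that lacks an activation domain, read 6.40, 6.26 and 6.61 in HDAC9-/- samples, against 5.98, 5.86 and 5.93 in wild type samples (difference 0.50, limma, adjusted p = 0.398). Nfil3, a bZIP repressor induced in activated lymphocytes, read 7.08, 6.81 and 7.05 in HDAC9-/- samples, against 6.59, 6.68 and 6.46 in wild type samples (difference 0.40, adjusted p = 0.432). Both genes kept the genotypes apart. Nab2, a corepressor that binds EGR proteins and is itself an EGR target, read 9.01, 8.69 and 8.70 in HDAC9-/- samples, against 9.36, 9.17 and 9.02 in wild type samples (difference -0.39, adjusted p = 0.509). Rcan1, the calcineurin inhibitor that NFAT induces, differed by 0.21, the chemokine Xcl1 by -0.38, and Sgk1, a salt-sensing kinase, by 0.22, with adjusted p of 0.552, 0.557 and 0.593.

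Markers of myeloid cells moved with the genotype, and myeloid cells also express many immediate early genes. All 15 measured myeloid markers had positive differences. At an unadjusted p below 0.05, 8 of them (53.3%) were higher, where 6.12% of all genes were. The mean log2 level over the list ran from 7.96 to 8.32 in HDAC9-/- samples and from 7.32 to 7.82 in wild type samples. Of the monocyte and macrophage markers, Itgam, Cd14 and Adgre1 were dimmer than the median probe set, while Lyz2, Csf1r, Cd68, Tyrobp, Fcer1g and Cst3 were brighter. Cd68 (difference 0.46) and Cst3 (0.33) kept the genotypes apart, as did the neutrophil genes S100a8 (0.96) and S100a9 (1.01). Chil3 (1.46) and Ltf (1.22) had the largest differences of the list and also lay apart, as did Flt3 (0.47) and Itgax (0.28). The groups of the remaining myeloid markers overlapped. The myeloid score was 0.40, 0.40 and 0.039 in HDAC9-/- samples, against -0.60, -0.10 and -0.13 in wild type samples. Of the 32 members, 10 had positive differences, the largest in Klf10, Atf3, Gadd45b and Dusp6. The other 22 had negative ones, the Btg and NR4A genes among them. Scores of B cell, CD8 T and natural killer cell, and red cell and platelet markers overlapped between the genotypes, with median differences of 0.065, 0.24 and -0.0043. The part of other cells in these differences was not tested, and in bulk samples fewer cells of a type and less RNA per cell cannot be told apart.

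Measures of RNA quality and handling were set beside the members. For Gapdh, signal at the 3-prime end exceeded that at the 5-prime end by 0.15 to 0.28 in HDAC9-/- samples, against 0.026 to 0.11 in wild type samples. For actin the excess was 0.42 to 0.60 in HDAC9-/- samples, against 0.33 to 0.46 in wild type samples, and the groups overlapped. Its part in the members' differences was not tested. Heat shock genes, which stress during isolation can induce, had a median difference of -0.0037 over 12 genes and scores that overlapped between the genotypes. Hspa1a and Hspa1b, their most inducible members, were dim, with means of 3.28 and 4.08 in HDAC9-/- samples against 3.18 and 3.91 in wild type samples.

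**Figure D4:**
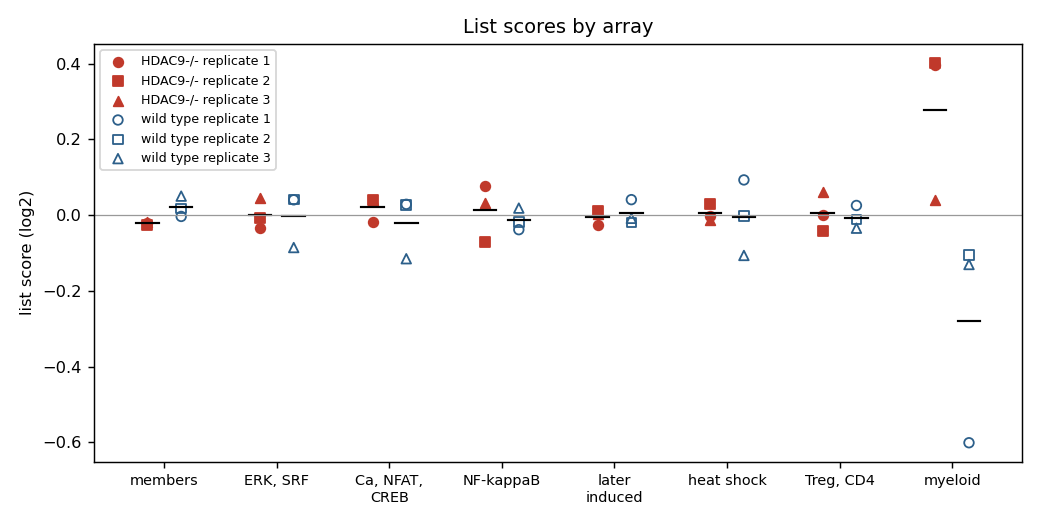
Score of each array (y axis, log2: average deviation of a list's genes from their own means) for the members, 4 pathway lists, heat shock genes, Treg and CD4 T cell markers and myeloid markers (x axis). Filled red marks are HDAC9-/- and open blue marks wild type samples, black lines are group means; the members' scores (-0.025 to -0.018 in HDAC9-/-, -0.0035 to 0.050 in wild type) spread far less than the myeloid scores.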

How the data were processed

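Biotin-labelled RNA of 3 HDAC9-/- and 3 wild type samples was hybridised to 1 array each. The authors deposited 1 log2 value per probe set and array, made with RMA per the submitters' processing notes, which name no version here. RMA shrinks differences of dim probe sets. Of 22690 probe sets, 64 controls were left out and 22626 tested. Only the 20380 with 1 gene symbol were named, 20351 of them through their Entrez identifier with RefSeq gene names of GRCm38.p6.

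The whole table was fitted in R 4.3.3 by limma 3.58.1 with genotype as the only term (lmFit, then eBayes), and p-values were adjusted over all 22626 probe sets by the Benjamini-Hochberg method. Simulated data with the spread of these arrays tested the fit. At an adjusted p below 0.05, limma recovered 44% of added changes of 0.5, 76% of those of 1 and 100% of those of 2. Changes of 0.5 were thus often missed. The brightest probe set stood for each gene. Alternatives were other normalizations, a brightness filter, other variance priors, array weights, the replicate block, each array left out and other probe set choices.

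The members and lists were chosen with earlier results of these data known. Every member was named; the 6 pathway genes were those with the smallest unadjusted p. Promoter letters were counted with Python 3.11.15 in 250 bases before each RefSeq start, a gene counting if any of its windows held them. Figures used matplotlib 3.10.9.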

Additional observations from a re-analysis of the deposited data

How the results depend on the processing

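No member passed an adjusted p of 0.05 under any of the 14 alternatives (smallest 0.123, Klf10). Klf10 kept its sign, its size (0.36 to 0.43) and an unadjusted p below 0.05 in all of them. With 1 probe set, its difference is the same by construction under both other probe set choices. The brightness filter, the trended prior and the replicate block also leave a difference unchanged, so only the remaining alternatives could move its sign or size. The 3 calls over all probe sets became 15 with the trended and robust prior, 6 with array weights, 5 at an adjusted p of 0.10 and 0 with the replicate block, and 0 to 6 with 1 array left out. Samples with the same replicate number had correlations of their deviations from the genotype mean of 0.036, 0.099 and -0.25. The other pairs ranged from -0.35 to 0.28. With 3 arrays per genotype, these values cannot decide whether samples were handled in pairs.

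Members at an unadjusted p below 0.05 numbered 1 higher and 1 lower. The share of all genes under each alternative is not given here, so the counts below have no background to be read against. The trended prior and array weights also raised the calls over all probe sets. The higher count was 2 without dim probe sets, 3 with the trended prior, 4 with array weights, 2 with the mean of probe sets, 2 with the second brightest probe set, and 1 to 4 without 1 array. The lower count was 2 with medians aligned, 3 with the trended prior, 4 with array weights, 2 with the replicate block, and 0 to 3 without 1 array. Groups lay apart upward for 1 member after quantile normalization or median alignment, where Fos was lost. That count was 3 with the mean of probe sets or the second brightest probe set, and 2 to 5 without 1 array. Downward, groups lay apart for 3 members after quantile normalization, where Nr4a2 was added, and for 3 with the mean of probe sets. Without 1 array the downward count was 4 to 7, where fewer samples separate more easily. With medians aligned the score difference was -0.069 and the median difference -0.093, while the median of all genes was -0.012.

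The sign turned for 10 members, Jun (brightest probe set -0.15) and Klf6 (-0.16) among them. By setting, these were Fosb (0.022), Ier3 (-0.0064) and Rgs2 (0.050) with array weights, Ier2 (-0.014) with medians aligned, Ier5 (-0.025) with the mean of probe sets, and Jun (0.072), Klf6 (0.020) and Ier5 (-0.33) with the second brightest probe set. Over the 6 fits without 1 array, the lowest and highest differences were -0.20 and 0.0015 for Egr2, -0.19 and 0.018 for Fosb, -0.057 and 0.22 for Klf4, -0.33 and 0.094 for Klf6, -0.0017 and 0.025 for Ier2, -0.059 and 0.18 for Ier3, -0.12 and 0.053 for Zfp36, and -0.078 and 0.083 for Rgs2. Beyond these 10, the other 22 members kept their sign throughout, but leaving out 1 array moved 26 of 32 differences by over 1.5 times, all but those of Egr3, Jund, Klf10, Dusp6, Btg1 and Gadd45b. The cause of these turns was not tested, and 3 arrays per genotype limit the precision.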

Other observations

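The members' extremes were not spread evenly over the arrays. Wild type replicate 3 had the highest value for 13 of 32 members (40.6%) and the lowest for 2 (6.25%), whereas over all genes it was highest for 23.1% and lowest for 31.3%. HDAC9-/- replicate 2 was the lowest array for 10 members (31.3%), against 10.9% of all genes. Wild type replicate 3 had the highest AP-1 and ATF score, at 0.17, where the other arrays lay between -0.086 and 0.0089.

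Several genes shared 1 pattern over the arrays. For the brightest Klf6 probe set, the 1418280_at probe set of Klf6, the second Zfp36l1 probe set and the brightest Btg2 probe set, HDAC9-/- replicate 1 was the lowest array and wild type replicate 2 the highest. The second Zfp36l1 probe set read 9.14, 9.46 and 9.88 in HDAC9-/- samples, against 9.69, 10.26 and 9.78 in wild type samples. The pattern was picked after its values were seen, and its source was not tested.

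Among the heat shock genes, Bag3, a cochaperone of HSP70, read 7.60, 7.54 and 7.74 in HDAC9-/- samples, against 7.35, 7.20 and 7.10 in wild type samples. Its difference was 0.41 (limma, unadjusted p = 0.00305, adjusted p = 0.403). Plasma cell markers had a lower score in every HDAC9-/- sample than in any wild type sample, with -0.47 for Jchain (limma, adjusted p = 0.337). Of the 5 markers, Xbp1 (-0.18) also kept the genotypes apart. Irf4 (-0.092) and Sdc1 (-0.046) overlapped, as did Prdm1, whose difference was positive (0.022).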
